A study of Homo sapiens with 33 samples.

Results

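TAOK1 tiles are the designed oligonucleotides of the PUM2 pool whose name before the colon is TAOK1. They were chosen by that name alone and numbered 154 of the 1599 tiles in the pool, with tile numbers that ran from 1 to 154 without a gap. The pool was introduced by transfection into HEK293T, a line derived from human embryonic kidney, without any added protein, so the PUM2 that was precipitated was that of the cells themselves. Harvest was 48 h after transfection, and cells were fixed with 0.1% formaldehyde for 10 min. The comparison set 3 libraries of RNA recovered with an antibody against PUM2 (the immunoprecipitate) against 3 libraries of Input, RNA from cells treated in the same way without precipitation. No control precipitation was among the groups that received this pool, so recovery with PUM2 and effects common to any precipitation cannot be told apart.

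PUM2 belongs to the Pumilio family of RNA-binding proteins, which recognise a short sequence element through a row of repeats that each contact a base. Elements of this kind are found mostly in the 3′ untranslated regions of mRNAs, where bound Pumilio proteins commonly lower the stability or the translation of the message. TAOK1 encodes TAO kinase 1, a serine/threonine kinase that acts upstream of MAP kinase cascades and in the regulation of microtubules. A tiled pool of this kind asks which stretches of such a message are recovered with the protein. Tile sequences and their positions in the TAOK1 transcript were not used here, so a tile is given by its number, and whether consecutive numbers share sequence was not analysed here.

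The 3 immunoprecipitate libraries held 15986799 to 17727926 reads and the 3 Input libraries 29433144 to 35092298. TAOK1 tiles took 975003 to 1150640 of the immunoprecipitate reads and 1891555 to 2285923 of the Input reads. Each tile was listed with 22 numbered barcodes, which gave TAOK1 3388 barcodes. In the immunoprecipitate libraries A, B and C, 57.7%, 56.7% and 54.4% of them had no read, against 7.59%, 7.05% and 7.76% in Input libraries A, B and C. Over all barcodes of the pool these shares were 51.5%, 49.1% and 46.8% in the immunoprecipitate, against 9.4%, 9.2% and 9.3% in Input. The letters are those of the deposited columns and name libraries without pairing them. Levels are given as CPM, the read count of a tile summed over its barcodes and scaled to library size with the TMM factors of the pool, and fold changes are immunoprecipitate over Input.

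The share of TAOK1 in the pool did not differ detectably between immunoprecipitate and Input. Its tiles made up 6.40%, 6.10% and 6.49% of the pool's reads in immunoprecipitate libraries A, B and C, against 6.43%, 6.39% and 6.51% in Input libraries A, B and C. The groups overlapped, and the difference of -0.113 percentage points did not exceed the spread between libraries (two-sided exact permutation test, p = 0.5, where 3 against 3 can reach no less than 0.1). Counted against pool reads outside NORAD, the noncoding RNA of the pool that has many Pumilio sites, the difference was 0.173 percentage points (6.82% ± 0.198 against 6.65% ± 0.0663, SD, n = 3 each, exact permutation p = 0.3). The sign of this small difference therefore depended on the denominator, and it also turned, to 0.00228 percentage points, without immunoprecipitate library B.

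Within TAOK1, a minority of tiles was called higher in the immunoprecipitate and most tiles were not called. Of 154 tiles, 152 passed the filter on low counts, and edgeR's quasi-likelihood test with Benjamini-Hochberg adjustment over all tested tiles of the pool called 20 higher and 4 lower at an adjusted p under 0.05. That is 13.2% of the tested TAOK1 tiles higher, where 14.1% of all 1563 tested tiles were, and 2.63% lower, where 4.16% of all tested tiles were, so the shares called were near those of the pool. The remaining 128 TAOK1 tiles did not pass, and their log2 fold changes ran from -4.43 to 1.95. The median log2 fold change was -0.04 over the tested TAOK1 tiles and -0.06 over all tested tiles. Scaling by library size alone, which moved the pool's median to -0.29, gave 19 TAOK1 tiles higher and 17 lower. Over the whole pool it gave 198 higher and 227 lower, against 220 and 65 with TMM factors. The number called lower thus rested on the scaling, in TAOK1 and in the pool.

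Reads within TAOK1 were distributed differently in the immunoprecipitate. The 20 tiles called higher held 25.3%, 26.8% and 21.1% of TAOK1 reads in immunoprecipitate libraries A, B and C, against 6.90%, 6.67% and 6.41% in Input libraries A, B and C. These tiles were chosen by the same contrast, so the shares describe them and test nothing. Of the 20, 5 were at least 8-fold higher, 6 were between 4-fold and 8-fold, and 9 were below 4-fold.

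The tiles TAOK1:88 and TAOK1:89 formed the strongest pair. TAOK1:88 stood at 897, 1267 and 696 CPM in immunoprecipitate libraries A, B and C, against 53.1, 43.2 and 37.6 CPM in Input libraries A, B and C. It was 21.4-fold higher (log2 fold change 4.42 ± 0.29, SE, n = 3 against 3, adjusted p = 1.26e-05 in edgeR), which placed it at rank 18 by fold change among the 220 tiles called higher in the pool. Its lowest immunoprecipitate library lay far above its highest Input library, and 19 of the 20 barcodes with at least 30 reads over the 6 libraries were higher in the immunoprecipitate.

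TAOK1:89 had the highest immunoprecipitate level of the called TAOK1 tiles, at 2644, 2319.8 and 1550.0 CPM in libraries A, B and C, against 152, 163 and 179 CPM in Input libraries A, B and C. It was 13.2-fold higher (log2 fold change 3.72 ± 0.22, adjusted p = 6.88e-06 in edgeR), with 21 of 22 barcodes higher. The groups were again far apart. On the near side TAOK1:87 had 295, 102 and 82.2 CPM in the immunoprecipitate, against 56.1, 30.4 and 37.6 CPM in Input, in the same order of libraries. Its libraries did not overlap, but its log2 fold change of 1.95 ± 0.59 missed the threshold (adjusted p = 0.0559 in edgeR), library A being more than the others above Input. It was at 1.17 without immunoprecipitate library A and passed without library C (2.31, adjusted p = 0.0247), with DESeq2 (adjusted p = 0.00122), with a replicate block (0.0452) and without its barcode of most reads (0.0368). On the far side TAOK1:90 had 519, 570.2 and 350.0 CPM in the immunoprecipitate, against 391, 303 and 322 CPM in Input (log2 fold change 0.50 ± 0.23, adjusted p = 0.190 in edgeR), and its groups overlapped. The window of tiles 86 to 90 had the highest mean of any 5 consecutive TAOK1 tiles, a log2 fold change of 2.28 with an SD of 0.33 between immunoprecipitate libraries.

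A second cluster lay between tile numbers 110 and 119. TAOK1:110 had 798, 632 and 659.5 CPM in immunoprecipitate libraries A, B and C, against 117, 118 and 110.5 CPM in Input, and was 6.05-fold higher (log2 fold change 2.60 ± 0.19, adjusted p = 1.97e-05 in edgeR). TAOK1:111 had 463, 492 and 429 CPM in the immunoprecipitate, against only 30.5, 27.8 and 36.1 CPM in Input. It was 14.7-fold higher (log2 fold change 3.87 ± 0.25, adjusted p = 9.56e-06 in edgeR), and its 3 immunoprecipitate libraries lay closer together than those of TAOK1:88. Both borders of this pair were sharp. TAOK1:109, directly before it, had 78.5, 31.2 and 66.6 CPM in the immunoprecipitate, against 114, 138 and 134 CPM in Input (log2 fold change -1.13 ± 0.46, adjusted p = 0.139 in edgeR), and TAOK1:112, directly after it, was at 0.13 ± 0.19.

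TAOK1:114 had the smallest p value of all TAOK1 tiles and stood without a called neighbour. It was at 1217, 1236 and 925 CPM in immunoprecipitate libraries A, B and C, against 116, 105 and 110.0 CPM in Input, and was 10.2-fold higher (log2 fold change 3.35 ± 0.18, adjusted p = 4.09e-06 in edgeR) with 20 of 21 barcodes higher. Beside it, TAOK1:113 was at 0.54 ± 0.38 and TAOK1:115 at 0.66 ± 0.23 (adjusted p = 0.405 and 0.0941 in edgeR), and neither passed. TAOK1:115 had 392, 399 and 306 CPM in the immunoprecipitate, against 244, 184 and 266 CPM in Input, so its groups did not overlap.

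Tiles 118 and 119 changed less, from a higher Input level. TAOK1:118 had 782, 595 and 644 CPM in immunoprecipitate libraries A, B and C, against 263, 203 and 228 CPM in Input (2.91-fold, log2 fold change 1.54 ± 0.19, adjusted p = 6.05e-04 in edgeR). TAOK1:119 had 1091, 1512 and 1084 CPM, against 429, 380.3 and 350.05 CPM in Input (3.18-fold, 1.67 ± 0.18, adjusted p = 2.48e-04 in edgeR). All 21 barcodes of TAOK1:119 with enough reads were higher, against 14 of 20 for TAOK1:118. The tiles on either side, TAOK1:117 (0.23 ± 0.63) and TAOK1:120 (-0.52 ± 0.29), did not pass, and TAOK1:117 ranged from 30.5 to 198 CPM among the immunoprecipitate libraries.

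Tiles 134 to 138 held 3 called tiles around 2 that did not pass. TAOK1:134 had 731, 547 and 670.5 CPM in immunoprecipitate libraries A, B and C, against 161, 131 and 131 CPM in Input (4.62-fold, log2 fold change 2.21 ± 0.20, adjusted p = 9.99e-05 in edgeR). TAOK1:137 had 1029.7, 811 and 800.3 CPM, against 105, 119 and 90.9 CPM in Input (8.39-fold, 3.07 ± 0.20, adjusted p = 1.18e-05 in edgeR). TAOK1:138 had 309, 526 and 503 CPM, against 63.2, 70.9 and 55.6 CPM in Input (7.06-fold, 2.82 ± 0.29, adjusted p = 1.81e-04 in edgeR). In all 3 tiles every immunoprecipitate library was above every Input library. The tiles between them differed from each other, TAOK1:135 being at 1.09 ± 0.47 (adjusted p = 0.163 in edgeR) and TAOK1:136 at 0.02 ± 0.45 (adjusted p = 0.983). The tiles outside were TAOK1:133 (-0.13 ± 0.40) and TAOK1:139 (-0.46 ± 0.36), neither called.

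The last 8 tile numbers held 4 called tiles. TAOK1:147 had 1787, 1396 and 1474 CPM in immunoprecipitate libraries A, B and C, against 524, 497 and 480.3 CPM in Input, and was 3.10-fold higher with the second smallest standard error of the tiles called higher (log2 fold change 1.63 ± 0.14, adjusted p = 5.30e-05 in edgeR). TAOK1:153 had 988, 647 and 626 CPM, against 166, 154 and 119 CPM in Input (5.14-fold, 2.36 ± 0.25, adjusted p = 2.23e-04 in edgeR). TAOK1:154, the last tile, had 355, 525 and 436 CPM, against 119, 73.6 and 93.8 CPM in Input (4.60-fold, 2.20 ± 0.28, adjusted p = 6.75e-04 in edgeR). The groups were apart in these 3 tiles, and 18 of 22, 20 of 22 and 19 of 21 barcodes were higher in the immunoprecipitate. With only its last 11 barcodes TAOK1:154 was at 1.89 and no longer passed (adjusted p = 0.0984 in edgeR). TAOK1:152 was weaker, at 257, 298 and 183 CPM, against 129, 134 and 102 CPM in Input (2.02-fold, 1.01 ± 0.29, adjusted p = 0.0440 in edgeR). Its call was lost without immunoprecipitate library A or B or any 1 Input library (adjusted p up to 0.187 in edgeR), with library size as the only scaling, with a replicate block and in either subset of 11 barcodes (adjusted p up to 0.232 over the 16 alternative fits). Tiles 152 to 154 were the only run of 3 called tiles in TAOK1. Just before them TAOK1:151 was at -0.64 ± 0.31, and around TAOK1:147 the tiles TAOK1:146 and TAOK1:148 were at 0.66 ± 0.26 and -0.31 ± 0.16 (adjusted p = 0.130 and 0.245 in edgeR).

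At lower tile numbers, tiles 61, 62, 79, 80, 82 and 13 were called higher. TAOK1:61 had 1089.6, 1235 and 768 CPM in immunoprecipitate libraries A, B and C, against 222, 251 and 232 CPM in Input (4.39-fold, log2 fold change 2.13 ± 0.20, adjusted p = 1.26e-04 in edgeR). TAOK1:62 had 668, 1203 and 692 CPM, against 206, 248 and 194 CPM in Input (3.96-fold, 1.98 ± 0.26, adjusted p = 9.26e-04 in edgeR). Library B was the highest of the immunoprecipitate for both tiles, and both were also called without it. The tiles on either side were below Input without passing, TAOK1:60 at -0.55 ± 0.50 and TAOK1:63 at -0.54 ± 0.30.

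TAOK1:79 had 352, 439 and 252 CPM in immunoprecipitate libraries A, B and C, against 159, 146 and 175 CPM in Input (2.17-fold, log2 fold change 1.12 ± 0.26, adjusted p = 0.0204 in edgeR). TAOK1:80 had 316, 337 and 237 CPM, against 100.2, 118 and 86.3 CPM in Input (2.92-fold, 1.55 ± 0.27, adjusted p = 0.00417 in edgeR). TAOK1:82 had 675, 485 and 586 CPM, against 202, 218 and 259 CPM in Input (2.57-fold, 1.36 ± 0.20, adjusted p = 0.00176 in edgeR). Groups did not overlap in any of the 3, and 15 of 22, 12 of 21 and 16 of 21 of their barcodes were higher in the immunoprecipitate. The call of TAOK1:79 was lost without any 1 Input library (adjusted p up to 0.112 in edgeR) and with only its first or its last 11 barcodes (0.234 and 0.0533), and those of TAOK1:80 and TAOK1:82 were lost with only the last 11 barcodes (adjusted p = 0.457 and 0.169). Between them TAOK1:81 had 115, 114 and 119.5 CPM in the immunoprecipitate, against 76.5, 51.6 and 69.0 CPM in Input, which did not overlap yet missed the threshold (0.82 ± 0.38, adjusted p = 0.199 in edgeR). TAOK1:78 (0.56 ± 0.38) and TAOK1:83 (-0.11 ± 0.29) did not pass.

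TAOK1:13 was the only tile called higher among the first 60 numbers, and had the smallest fold of the 20. It had 1185, 1491 and 1365 CPM in immunoprecipitate libraries A, B and C, against 800.0, 777 and 699 CPM in Input, a 1.78-fold difference (log2 fold change 0.83 ± 0.13, adjusted p = 0.00252 in edgeR). Its call held without any 1 library, and 18 of 22 barcodes were higher. It lay between TAOK1:12, which was lower in every immunoprecipitate library without passing (69.2, 70.2 and 150.2 CPM against 167, 210.2 and 198 CPM in Input, log2 fold change -0.99 ± 0.39), and TAOK1:14 (0.22 ± 0.20).

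Called tiles were spread unevenly over the tile numbers. The 20 tiles formed 12 separate runs, of which 5 were single tiles, 6 were pairs and 1 held 3. In 4 nearly equal blocks, tiles 1 to 38 had 1 called higher and 3 called lower of 38 tested, tiles 39 to 77 had 2 and 0 of 37, tiles 78 to 115 had 8 and 1 of 38, and tiles 116 to 154 had 9 and 0 of 39. The blocks were set after the values were seen and are a description. Input levels moved with the blocks: the median Input level was 619 CPM in tiles 1 to 38, 246 CPM in tiles 39 to 77, 159.5 CPM in tiles 78 to 115 and 160.1 CPM in tiles 116 to 154. The part of the Input level in the distribution of calls was not tested.

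Neighbouring tiles resembled each other over a short distance. Across 150 pairs of tiles with consecutive numbers the log2 fold changes had a Pearson correlation of 0.388 and a Spearman correlation of 0.295. At 2 numbers apart the Pearson correlation was 0.103 over 148 pairs, at 3 apart 0.175 over 147 pairs, and at 10 apart -0.0786 over 140 pairs. All tiles share the same 6 libraries, so these values describe the profile. The 22 tiles that border a run of called tiles had a median log2 fold change of 0.08 and ranged from -1.13 to 1.95, with 12 above 0 and 10 below. By the definition of a run, none of them was called higher, so their values leave out such tiles in advance. None was called lower either.

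A larger set of tiles was separated between groups without passing the test. Groups did not overlap in 33 TAOK1 tiles with the immunoprecipitate higher, 21.7% of those tested where the pool had 19.7%, and in 30 with it lower, 19.7% where the pool had 20.6%. All 24 called tiles were among them, which left 13 higher and 26 lower that were not called. The highest of those not called were TAOK1:87, TAOK1:81 and TAOK1:86. TAOK1:86 had 279.7, 222 and 330.4 CPM in immunoprecipitate libraries A, B and C, against 172, 162 and 143 CPM in Input (log2 fold change 0.80 ± 0.25, adjusted p = 0.0632 in edgeR), so tiles 86 to 89 were all above Input in every library. TAOK1:86 passed without immunoprecipitate library B (0.94, adjusted p = 0.0209).

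The 4 tiles called lower were all abundant in Input and fell by a small factor. TAOK1:36 had 309, 184 and 178 CPM in immunoprecipitate libraries A, B and C, against 494, 472 and 485 CPM in Input (log2 fold change -1.11 ± 0.26, adjusted p = 0.0180 in edgeR), with 2 of 21 barcodes higher. TAOK1:8 had 387, 229 and 305 CPM, against 678, 606 and 580.2 CPM in Input (-1.02 ± 0.22, adjusted p = 0.0137). TAOK1:22 had 399, 294 and 357 CPM, against 680.4, 594 and 573 CPM in Input (-0.81 ± 0.18, adjusted p = 0.0145). TAOK1:98 had 275, 356 and 440.2 CPM, against 567, 552 and 659.7 CPM in Input (-0.73 ± 0.21, adjusted p = 0.0464). None of these calls held in all fits that left out 1 library. Without an Input library they were all lost when it was A or B, and TAOK1:8 alone stayed when it was C. TAOK1:98 was also lost without immunoprecipitate library A or B. Adjusted p in these fits was up to 0.0767, 0.106, 0.0804 and 0.199 in edgeR for tiles 8, 22, 36 and 98. Most lower calls of the whole pool were lost as well, from 65 to 12, 15 and 19 without Input library A, B and C.

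The lowest values belonged to tiles with few reads, which did not pass with all libraries and barcodes. TAOK1:99 had 40 immunoprecipitate reads, all in library A and all from 1 barcode, against 1890 Input reads. Its levels were 2.50, 0 and 0 CPM, where a count of 0 allows up to 0.207 CPM in library B and 0.180 CPM in library C, against 14.1, 21.9 and 18.0 CPM in Input (log2 fold change -4.43 ± 2.10, adjusted p = 0.204 in edgeR). It passed without immunoprecipitate library A (adjusted p = 0.00701) and with only the first 11 barcodes (0.0203), where no immunoprecipitate read remained and a fitted fold change is no bound. TAOK1:130 had 10.7, 0 and 14.9 CPM in the immunoprecipitate, against 55.3, 64.1 and 56.8 CPM in Input (-2.78 ± 1.59, adjusted p = 0.290). It passed without immunoprecipitate library B (-2.20, adjusted p = 0.0466) and with only the first 11 barcodes (0.0170), which again held no immunoprecipitate read. TAOK1:131 had 14.2, 66.6 and 27.8 CPM, against 71.5, 94.7 and 74.3 CPM in Input (-1.15 ± 0.71, adjusted p = 0.334). All 3 were below Input in every library, but the immunoprecipitate libraries differed among themselves by several fold. They lay in the lowest windows of 5 tiles, which were tiles 128 to 132, with a mean of -1.36, an SD of 0.77 between immunoprecipitate libraries and 0 calls, and tiles 95 to 99, with a mean of -1.22, an SD of 0.28 and 1 call (TAOK1:98, lower).

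TAOK1:33 was the most abundant TAOK1 tile in Input and showed no detectable difference, at 2365, 1943 and 2767 CPM in the immunoprecipitate, against 2299, 2479 and 2609 CPM in Input (log2 fold change -0.06 ± 0.14, adjusted p = 0.813 in edgeR). The tested tile with fewest Input reads was TAOK1:74, with 38 reads in the immunoprecipitate, against 551 in Input, and its log2 fold change of -2.85 ± 2.13 did not pass (adjusted p = 0.432 in edgeR), though it did without immunoprecipitate library C (0.0290) and with only the first 11 barcodes (0.0432), where no immunoprecipitate read remained. The 2 tiles that did not enter the test were TAOK1:68, which had 119 reads in Input library B and none elsewhere, and TAOK1:69, which had no read in any library, where a count of 0 allows up to 0.207 CPM in the immunoprecipitate and up to 0.0945 CPM in Input. Across the tested tiles the mean Input level ran from 5.52 to 2463 CPM. Tiles called higher had a median Input level of 144 CPM, tiles called lower 604 CPM and tiles not called 277 CPM. Across the 152 tiles the Spearman correlation of Input level with log2 fold change was -0.222, a value that shares the Input counts on both sides.

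Barcodes of a tile gave a second view of the same libraries and the same reads. The calls were made on the sum of these barcodes, so the shares by call describe the tiles and test nothing. Over the 20 tiles called higher, 358 of 426 barcodes with at least 30 reads were higher in the immunoprecipitate (84.0%), over the 128 not called 997 of 2707 (36.8%) and over the 4 called lower 14 of 86 (16.3%). Most barcodes of the tiles without a call were thus below Input, while the summed levels of these tiles had a median log2 fold change of -0.12. In tiles called higher, 33.6% of barcode values were 0 in the immunoprecipitate, against 8.18% in Input. In tiles not called, 59.1% were 0 in the immunoprecipitate, against 6.11% in Input. TAOK1:109 was a case of the second kind, with 15 of its 22 barcodes unread in all 3 immunoprecipitate libraries and 39.9% of the reads that remained in 1 barcode, against 8.73% in its leading Input barcode. In TAOK1:89, 1 barcode was unread in the immunoprecipitate, and the leading barcode held 11.0% of the reads, against 10.5% in Input.

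The called tiles were then fitted again with the first 11 and, separately, the last 11 barcodes of every tile. All 20 tiles called higher had a positive and all 4 called lower a negative log2 fold change in both fits, and 15 of the 20 were called higher in both. Of the 4 called lower, 0 were called with the first 11 barcodes and 1, TAOK1:36, with the last 11. TAOK1:88 was at 4.45 with the first 11 barcodes and 4.37 with the last 11, TAOK1:111 at 3.79 and 3.94, and TAOK1:89 at 3.52 and 3.89. TAOK1:80 differed most of the 24 called tiles, at 1.83 and 0.83. Over all 152 tiles the fits had a Pearson correlation of 0.648 and differed by a median of 0.382 on the log2 scale, and over the 20 called higher by a median of 0.208. Both sets of barcodes come from the same libraries, so the comparison bears on the spread between barcodes and not on that between libraries. Each set is also part of the counts that made the calls, so the agreement of called tiles is no independent check. The immunoprecipitate libraries also varied more than Input: the median coefficient of variation over tested TAOK1 tiles was 27.9% in the immunoprecipitate and 8.89% in Input, and over the tiles called higher it was 18.6% and 12.7%.

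Beside the source RNAs with the most similar numbers of tiles, TAOK1 lay between them in the share of tiles called higher. TAOK1 had 20 of 152 tested tiles higher (13.2%) and 4 lower. LNPEP, the mRNA of an aminopeptidase, had 32 of 156 higher (20.5%) and 10 lower, and PRKDC, the mRNA of a DNA repair kinase, had 12 of 173 higher (6.94%) and 5 lower. The share called lower was 2.63% in TAOK1, below the 6.41% of LNPEP and near the 2.89% of PRKDC. Among the tiles called higher, the median log2 fold change was 2.17 in TAOK1, 2.66 in LNPEP and 0.98 in PRKDC, and 11 of 20, 24 of 32 and 1 of 12 were more than 4-fold higher. The upper quartile of all tested tiles was 0.55 in TAOK1, 0.96 in LNPEP and 0.09 in PRKDC, against 0.35 in the whole pool. The differences between source RNAs were not tested.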

How the data were processed

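Read counts per tile and barcode were deposited by the authors as 1 table for the PUM2 pool. Per the labels' protocols they come from single-end amplicon sequencing of cDNA, and per the file headers each column is 1 library. How reads were assigned to tiles, and whether molecular identifiers were used, is not given in the sources used here. PCR reads without identifiers are not independent molecules, so limits set by a count of 0 (3 reads) cover counting error only. Columns carry a pool, a fraction and a letter, and were placed in their group by name, with 0 columns left unmatched. Nothing in the labels says that replicates were separate cultures, and p-values then reflect only how these libraries vary, which can be technical variation. Chi-square per degree of freedom between libraries of a group was 72.2 to 669, so none was a copy of another.

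Counts were summed over the 22 barcodes of a tile. The 1599 tiles were filtered with filterByExpr, scaled by TMM and compared in R 4.3.3 by the robust quasi-likelihood test of edgeR 4.0.16. The fit was also run on simulated counts with known changes, in which a tile had the same dispersion (spread between libraries) in both groups. The larger spread of the immunoprecipitate libraries was therefore not covered by it. The standard error of a log2 fold change was its size over the square root of the F statistic. Windows added 0.5 CPM before taking logs for their SD. The members, lists and tests were chosen with earlier results of these data known. Named tiles are all called tiles, the 3 highest and 3 lowest uncalled tiles whose groups do not overlap, the tiles bordering runs of tiles called higher, and those of most and fewest Input reads. Alternatives were RLE factors, scaling by library size only, no filter on counts, a minimum mean count of 50, DESeq2 1.42.0, a replicate block, a minimum log2 fold change of 1, leaving out each library, subsets of barcodes, and, chosen after seeing the data, barcode reads capped at 10 times the median of the tile.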

Additional observations from a re-analysis of the deposited data

How the results depend on the processing

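Over the 16 alternative fits no called tile changed sign, and 15 of the 20 tiles called higher passed in all of them, or 14 when a minimum log2 fold change of 1 was added as the last of 17 settings, which TAOK1:13 did not reach; 18 of the 20 passed whichever of the 6 libraries was left out, and none of the 4 called lower did. The fit behind the calls had 220 tiles higher and 65 lower over the pool. With library size as the only scaling 17 TAOK1 tiles were lower, where the pool had 227. With DESeq2 44 passed (31 higher, 13 lower, all 24 among them), where the pool had 291 higher and 169 lower. With a log2 fold change of at least 1 there were 2 lower, and with the last 11 barcodes 2 lower, where the pool had 35 and 30. Leaving out 1 library gave 18 to 44 calls, with 18 to 29 higher and 0 to 15 lower. In particular, without immunoprecipitate library C 29 were higher and 15 lower, and without A and B 9 and 8 were lower. Over the pool, 264 were higher and 146 lower without library C, and 115 and 113 were lower without A and B. Without Input library A, B and C, 0, 0 and 1 were lower. The pool's tiles called lower also fell, from 65 to 12, 15 and 19 in these fits. With the letter as a replicate block 20 were higher and 5 lower. Libraries with the same letter did not deviate together (correlations of -0.0367, 0.014 and -0.0173 over 1563 tiles), and 1 of 3 immunoprecipitate libraries correlated best with its own letter, so the letters were not read as pairs. Capping barcode reads left 20 higher and 4 lower.

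The difference in the TAOK1 share was 0.173 percentage points outside NORAD. Over all pool reads it lay between -0.194 and 0.00228 without 1 library. The highest window mean was 3.36 for 3 tiles and 1.39 for 9. Counting barcodes from 10 or 100 reads gave 83.8% and 85.1% higher. Of the 28 named tiles that were not called, 15 passed in at least 1 alternative, 13 of them without 1 immunoprecipitate library. Beside those given above, these were TAOK1:113 (0.90, adjusted p = 0.0192 in edgeR) and TAOK1:135 (1.45, 0.0147) without library A, TAOK1:146 (0.86, 0.0331) without B, and TAOK1:12 (-1.42, 0.0113), TAOK1:90 (0.73, 0.0236), TAOK1:115 (0.81, 0.0346), TAOK1:120 (-0.79, 0.0357) and TAOK1:151 (-1.03, 0.00600) without C. TAOK1:109 passed without its barcode of most reads (-1.66, 0.0474) and TAOK1:148 with library size only (-0.54, 0.0387). With DESeq2, TAOK1:86, TAOK1:115, TAOK1:135 and TAOK1:146 also passed as higher, and TAOK1:12 and TAOK1:109 as lower. TAOK1:151 also passed with the last 11 barcodes (-1.14, adjusted p = 0.0434 in edgeR). Of these 28 tiles, 11 changed sign in at least 1 setting, and the cause was not tested. Not all of them were near 0 with all libraries and barcodes, such as TAOK1:113 at 0.54 and TAOK1:120 at -0.52. With library size only, TAOK1:117 was at -0.0070, TAOK1:136 at -0.21, TAOK1:14 at -0.0094 and TAOK1:112 at -0.10. With the replicate block TAOK1:117 was at -0.14. Without the barcode of most reads TAOK1:113 was at -0.043 and TAOK1:136 at -0.35. With the first 11 barcodes TAOK1:112 was at -0.44, TAOK1:120 at 0.11, TAOK1:139 at 0.17 and TAOK1:148 at 0.0048, and with the last 11 TAOK1:133 at 0.11, TAOK1:136 at -0.47 and TAOK1:83 at 0.0061. Without 1 library TAOK1:117 ranged from -0.55 to 0.72, TAOK1:133 from -0.69 to 0.17, TAOK1:136 from -0.24 to 0.26, TAOK1:83 from -0.27 to 0.17 and TAOK1:33 from -0.15 to 0.059.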
